A study of Mus musculus with 79 samples.

Results

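The SLC25 proteins are the carriers that move metabolites across the inner mitochondrial membrane, and their genes were followed in mouse quadriceps across diets and strains. The members were all genes whose symbol in the deposited table was Slc25a followed by a number, with Slc25a20 left out, and each was represented by its probeset with the highest mean. This gave 43 genes of the 22335 with a symbol. They were measured by 49 of the 35556 probesets, since 5 of the symbols had several. A RefSeq gene table (assembly GRCm38.p6) lists 47 current symbols of the same form, and all 43 members are among them. A further 3 were on the array under older names (Mcart1, Mcart6 and 4930443G12Rik, now Slc25a51, Slc25a53 and Slc25a54) and were not members by the rule.

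Mitochondrial carriers share a fold of repeated helices and work mostly as exchangers: one metabolite enters the matrix as another leaves. In muscle the family is best known for oxidative ATP supply, in which the adenine nucleotide translocases export ATP for ADP and the phosphate carrier brings in phosphate, and for the malate-aspartate shuttle, which carries reducing equivalents from cytosolic NADH into the matrix. Other members carry citrate, dicarboxylates, amino acids, iron and the precursors or finished forms of cofactors. Several carriers still lack a settled substrate. The carriers are made in the cytosol and reach the inner membrane through the TOM receptors, the small TIM chaperones and the TIM22 complex.

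The arrays (Affymetrix Mouse Gene 1.0 ST) held quadriceps RNA from male mice of the BXD family, recombinant inbred strains descended from C57BL/6J and DBA/2J, and from both of those parents. The mice ate a Harlan chow diet (CD) throughout or a Harlan high fat diet (HFD) from 8 weeks of age, had no engineered allele named in the labels, were fasted overnight and were sampled at 29 weeks on either diet. Every array was hybridised with RNA pooled evenly from about 5 mice sharing strain and diet. The spread among mice of a strain was thus not measured, and the p-values rest on the spread between strains. There were 42 CD and 37 HFD arrays of 42 strains, of which 37 had both diets, and RNA extraction and arrays were done in 2 batches with both diets in each (18 CD and 17 HFD arrays in batch 1, 24 and 20 in batch 2).

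The deposited value is a log-type score with a mean of 8 and an SD of 2 on every array. Folds are given as nominal, since they treat a unit as 1 log2 step, which holds if the unscaled log2 values had an SD of 2. Muscle fibre markers (Ckm, Acta1, Mb, Ttn, Actn2 and Des) had a mean score of 14.32 to 14.58 over the CD arrays and of 14.35 to 14.68 over the HFD arrays, so that the defining markers of muscle were present on every array. Strain BXD63 stood apart. Over 1154 olfactory receptor probesets its HFD minus CD profile correlated at -0.537 with the mean of the other strains, while those strains ranged from 0.421 to 0.649. Over the 43 carriers the same correlation was 0.004 for BXD63 and -0.272 to 0.674 in the others (median 0.392), so BXD63 lay inside their range. The olfactory profile raises the doubt that the diet labels of its 2 arrays were exchanged, which was not tested. Results are therefore given also without this strain where a call changes.

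Between diets, 10 of the 43 carriers were higher in HFD, 8 were lower and 25 did not pass the test. Those higher included the citrate carrier Slc25a1, the adenine nucleotide translocase Slc25a5, the pyrimidine nucleotide carrier Slc25a33 and the oxoglutarate carrier Slc25a11. Those lower included both ornithine carriers, Slc25a2 and Slc25a15. The changes were small: differences ran from -0.199 to 0.245 score units with a median of 0.022, against -0.001 over all genes. Over all probesets the same fit (limma, with diet and batch as terms) called 38.1%, with 18.9% higher and 19.3% lower, so the share of carriers called was close to this background. Calls were also counted by brightness. Of the 36 carriers at or above the median probeset mean, 10 were higher and 4 lower, where such probesets were called at 31.3% (17.9% higher, 13.4% lower). Of the 7 dimmer carriers none was higher and 4 were lower, where 44.9% of probesets below the median were called (19.8% higher, 25.1% lower).

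All 18 called carriers kept their direction in each batch alone, where 5 and 9 of them passed the test in batch 1 and batch 2, where 12.6% and 24.4% of probesets were called. With each strain as a block, the 18 calls stayed and Slc25a34 joined them at 0.183 (adjusted p = 0.0151), giving 11 higher and 8 lower (40.6% of probesets called). Without BXD63 there were 11 higher and 8 lower (39.6% of probesets), with Slc25a34 and Slc25a44 gained and Slc25a10 lost. Centring each array on its median moved the split from 10 and 8 (55.6% of calls higher) to 16 and 6 (72.7% higher, with 39.3% of probesets called), with no called carrier changing sign. Besides Slc25a3 and Slc25a4 it gained Slc25a29, Slc25a34, Slc25a39 and Slc25a44 (0.080 to 0.198 units, adjusted p of 0.0181 to 0.0422). After quantile normalization Slc25a10, Slc25a17 and Slc25a42 were no longer called (adjusted p of 0.0508, 0.0735 and 0.0652), leaving 7 higher and 8 lower (37.4% of probesets called).

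**Figure D1:**
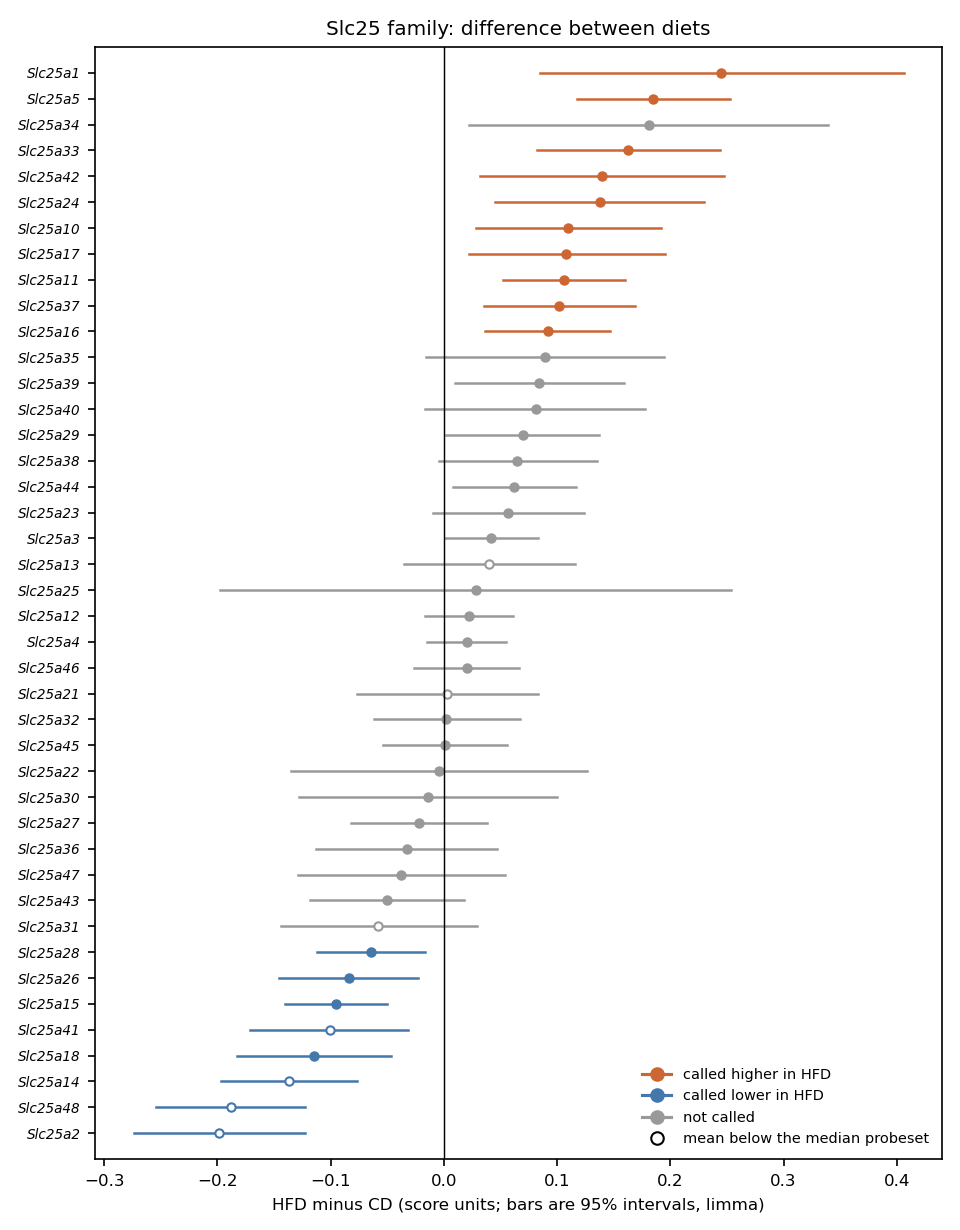
Difference between diets for 42 of the carriers in score units (horizontal axis), with 95% intervals from limma, over 42 CD and 37 HFD arrays. The differences lie between -0.199 (Slc25a2) and 0.245 (Slc25a1), 24 of those drawn are not called, and 4 of the 8 carriers called lower have a mean below the median probeset (open circles).

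Of the carriers that supply oxidative ATP production, 1 of 3 was called, and with median centring all 3 were, Slc25a3 at 0.059 (adjusted p = 0.0161) and Slc25a4 at 0.037 units (0.0374). Slc25a4, the main adenine nucleotide translocase of muscle, had lowest, median and highest scores of 14.48, 14.60 and 14.74 in CD and of 14.42, 14.63 and 14.75 in HFD. The diets overlapped over nearly the whole range, and the difference was 0.02 (95% interval -0.015 to 0.055, adjusted p = 0.394). Slc25a3, the phosphate carrier, ran from 13.24 through a median of 13.47 to 13.63 in CD and from 13.27 through 13.52 to 13.66 in HFD. Its difference of 0.042 ± 0.021 (SE) did not pass the test (adjusted p = 0.102). Slc25a5, the translocase that prevails in tissues other than muscle and heart, ran from 10.72 through 10.95 to 11.40 in CD and from 10.93 through 11.14 to 11.47 in HFD. The lowest HFD array stood near the CD median, and Slc25a5 rose by 0.185 ± 0.034 units (nominal 1.137-fold, adjusted p = 6.86e-06), with a higher value in HFD in 32 of 37 strains. It was called in each batch alone, at 0.210 and 0.165 units.

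Slc25a5 was measured by 3 probesets, which varied together over arrays (r of 0.924 to 0.973 with the one used). The other 2 rose as well, by 0.201 and 0.105 units. By their numbering these lie among probesets of chromosomes 1 and 5, whereas the gene is on chromosome X, so their signal may include that of near-identical copies and the value for this gene is uncertain to that extent.

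Among the remaining carriers of adenine nucleotides and phosphate, 3 of 7 were higher and 1 was lower. Slc25a42, which brings coenzyme A into the matrix, had scores of 9.88, 10.51 and 10.83 (lowest, median, highest) in CD and of 10.11, 10.61 and 11.004 in HFD. It rose by 0.140 ± 0.054 units (adjusted p = 0.0336), with 27 of 37 strains higher in HFD and wide overlap between diets, and the call was lost without BXD68 or BXD69 (highest adjusted p = 0.0519). Slc25a24, an ATP-Mg/phosphate carrier regulated by calcium, ran from 7.78 through 8.16 to 8.58 in CD and from 7.73 through 8.28 to 8.92 in HFD. Its rise of 0.138 ± 0.047 units (adjusted p = 0.0143) was shared by 26 of 37 strains. Slc25a17, a carrier of peroxisomes that takes coenzyme A and nucleotide cofactors, rose by 0.108 ± 0.044 units (adjusted p = 0.0408). Its second probeset differed by 0.006 (adjusted p = 0.929) and followed the first with r of 0.070 in CD and 0.386 in HFD, and 25 of the 42 fits that each left out 1 strain kept the call (adjusted p of 0.0218 to 0.0726).

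The short ATP-Mg/phosphate carrier Slc25a41 ran from 7.46 through 7.87 to 8.08 in CD and from 7.23 through 7.80 to 8.04 in HFD. It fell by 0.101 units (adjusted p = 0.0164), a mean below the median probeset standing behind this value. Slc25a23 and Slc25a25, both calcium-regulated carriers of the same kind, did not pass the test, at 0.057 ± 0.034 and 0.028 ± 0.114 units. Slc25a31, the testis form of the translocase, was at -0.058 ± 0.043 units, and its mean too was below the median probeset.

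Of the 8 carboxylate and aspartate-glutamate carriers, 3 were higher, 1 was lower and 4 did not pass the test. Slc25a1, which exports citrate, the source of acetyl groups for fatty acid synthesis, had scores of 8.99, 9.47 and 11.48 in CD and of 9.24, 9.73 and 10.53 in HFD. The highest value of all was the CD array of BXD56. Slc25a1 rose by 0.245 ± 0.080 units (nominal 1.185-fold, adjusted p = 0.0111), in 28 of 37 strains, and by 0.221 to 0.276 units when each strain was left out in turn. Slc25a10, the dicarboxylate carrier, ran from 8.63 through 8.79 to 9.25 in CD and from 8.42 through 8.92 to 9.40 in HFD. Its rise of 0.110 ± 0.041 units (adjusted p = 0.0274) was no longer called without BXD63 (adjusted p = 0.0536).

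Slc25a11, which exchanges oxoglutarate for malate in the malate-aspartate shuttle, ran from 12.99 through 13.41 to 13.63 in CD and from 13.17 through 13.52 to 13.68 in HFD. It rose by only 0.106 ± 0.027 units, but did so in 33 of 37 strains (adjusted p = 0.0011). The aspartate-glutamate carriers of that shuttle were not called: Slc25a12 (aralar, the muscle and brain form) differed by 0.022 (95% interval -0.017 to 0.061) and Slc25a13 (citrin, the liver form) by 0.040 (-0.035 to 0.116). Slc25a18, a glutamate carrier, ran from 7.66 through 7.93 to 8.24 in CD and from 7.42 through 7.83 to 8.28 in HFD and fell by 0.115 units (adjusted p = 0.00501). The other glutamate carrier, Slc25a22, was at -0.004 ± 0.066, and the oxodicarboxylate carrier Slc25a21 at 0.003 ± 0.040.

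No amino acid carrier was higher in HFD and 2 of 5 were lower. Slc25a2, one of the ornithine carriers, ran from 6.95 through 7.22 to 7.65 in CD and from 6.66 through 7.08 to 7.42 in HFD, and 8 of 37 strains had the higher value in HFD. It fell by 0.199 units (adjusted p = 1.42e-05), the largest fall of the family, at a mean below the median probeset. Slc25a15, the ornithine carrier of the urea cycle, ran from 8.45 through 8.69 to 8.97 in CD and from 8.40 through 8.62 to 8.75 in HFD and fell by 0.095 units (adjusted p = 0.00041). The glycine carrier Slc25a38, the branched-chain amino acid carrier Slc25a44 and the basic amino acid carrier Slc25a29 lay between 0.062 and 0.070 units and were not called, although Slc25a44 passed without BXD63 (adjusted p = 0.0278).

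Of the 8 nucleotide and cofactor carriers, 2 were higher and 1 was lower. Slc25a33, which carries pyrimidine nucleotides for mitochondrial DNA and RNA synthesis, ran from 7.80 through 8.202 to 8.51 in CD and from 8.08 through 8.32 to 8.81 in HFD. It rose by 0.163 ± 0.041 units (nominal 1.12-fold, adjusted p = 0.000777), in 27 of 37 strains. Slc25a16, a carrier tied to coenzyme A, rose by 0.092 ± 0.028 units (adjusted p = 0.00646), whereas Slc25a26, the S-adenosylmethionine carrier, fell by 0.084 units (adjusted p = 0.0245), a call that median centring ended (-0.067, adjusted p = 0.102). Of those not called, Slc25a32, Slc25a36, Slc25a39 and Slc25a40 lay between -0.033 and 0.084 units.

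Of the 2 iron carriers 1 rose and 1 fell. Slc25a37, mitoferrin of the erythroid line, ran from 8.80 through 9.17 to 9.57 in CD and from 9.05 through 9.30 to 9.60 in HFD and rose by 0.102 ± 0.034 units (adjusted p = 0.0115). Slc25a28, the mitoferrin of other tissues, ran from 9.78 through 9.96 to 10.21 in CD and from 9.71 through 9.91 to 10.15 in HFD and fell by 0.064 units (adjusted p = 0.0263). Both sets of values overlapped widely, and median centring ended the call for Slc25a28 (adjusted p = 0.126).

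Among the 3 carriers close in sequence to the uncoupling proteins, Slc25a14 fell by 0.137 units (adjusted p = 0.000154), from a median of 7.30 to one of 7.15, while Slc25a27 and Slc25a30 were at -0.022 ± 0.030 and -0.014 ± 0.057. Slc25a46, a family member of the outer membrane that shapes mitochondria, was at 0.020 ± 0.023. Of the 6 carriers listed without a settled substrate, Slc25a48 ran from 7.24 through 7.56 to 7.78 in CD and from 6.92 through 7.36 to 7.60 in HFD. It fell by 0.188 units (adjusted p = 2.45e-06), and 5 of 37 strains had the higher value in HFD. Slc25a14 and Slc25a48 both have a mean below the median probeset. Slc25a34 passed with strain as a block or without BXD63 (adjusted p = 0.0151 and 0.0424), its difference over all arrays without the block being 0.181 ± 0.080 (adjusted p = 0.0637). The other 4 lay between -0.050 and 0.089 units.

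**Figure D2:**
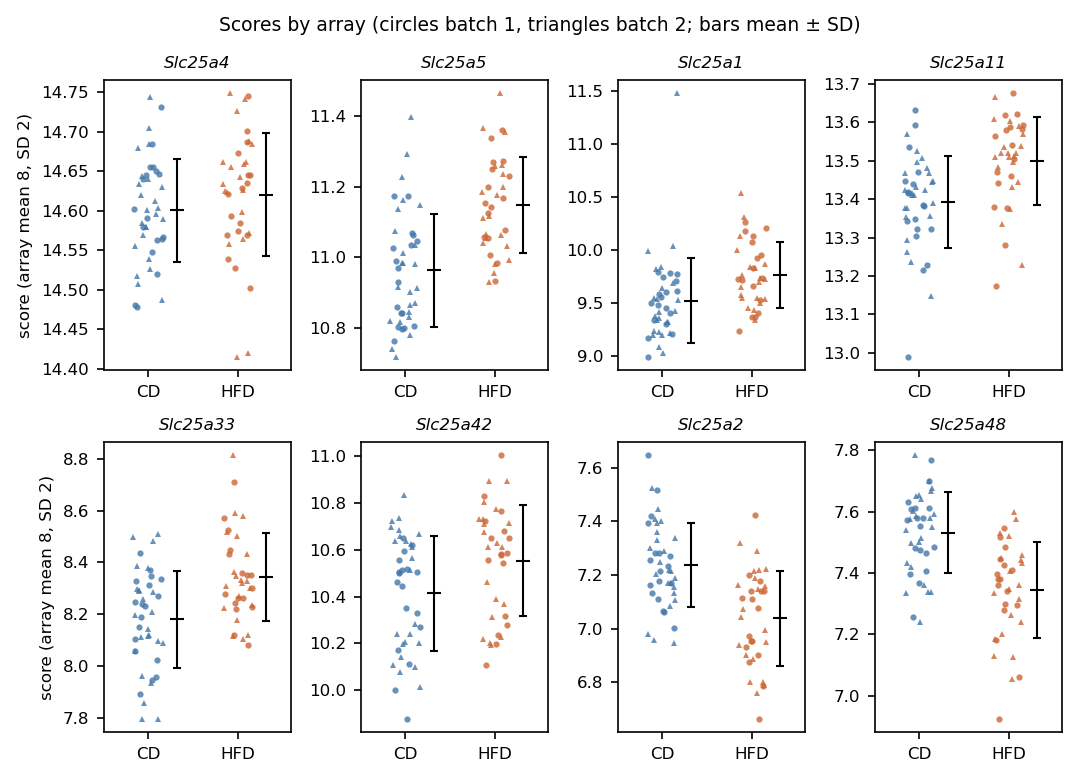
Scores of 8 carriers by array (vertical axes, array mean 8 and SD 2), with 42 CD and 37 HFD arrays, circles for batch 1, triangles for batch 2, and bars for the mean ± SD. The diets overlap in every panel, and the single CD array of BXD56 stands at 11.48 for Slc25a1.

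Markers of other cell types moved with diet as well, in the fit that called 38.1% of all probesets. Of the 6 adipocyte markers 4 were higher in HFD and Cfd was lower (-0.608 units), with Lep (leptin) at 1.582 and Cidec, a lipid droplet protein, at 0.747 units above CD. Their mean score per array ran from 8.79 to 10.60 in CD and from 8.93 to 11.11 in HFD. Of 5 macrophage markers 3 were higher, with Cd68 at 0.386 and Emr1 at 0.371 units, and their mean ran from 8.40 to 9.19 in CD and from 8.54 to 9.64 in HFD. Of 5 endothelial markers 3 were higher (Kdr, Pecam1 and Cdh5, by 0.149 to 0.203 units). One muscle fibre marker (Mb, 0.130 units) was higher, while limma called none of 7 slow fibre markers (median -0.207 units) and none of 5 fibroblast markers. At an unadjusted p under 0.05 there were 0 and 1 of them. With strain as a block the collagen gene Col3a1 (0.085 units, adjusted p = 0.0394) and the macrophage marker Lyz2 (0.157 units, adjusted p = 0.0173) passed as well. In a tissue sample a change in the share of a cell type and a change in RNA per cell cannot be told apart.

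Across arrays of one diet, each carrier was set against the mean of each marker list after batch means were removed (602 relations, with permutation p-values adjusted over all of them). Slc25a1 followed the adipocyte markers with r = 0.733 (rho = 0.764) in CD and r = 0.923 (rho = 0.925) in HFD, and Slc25a10 with r = 0.619 (rho = 0.521) and r = 0.797 (rho = 0.834). The adjusted p of r was 0.00086 for all 4. Within the batches r was 0.885 and 0.735 in CD and 0.931 and 0.919 in HFD for Slc25a1. For Slc25a10 it was 0.353 and 0.775 in CD and 0.808 and 0.799 in HFD. Without the 2 arrays farthest from the marker median, r was 0.703 and 0.909 for Slc25a1 and 0.469 and 0.779 for Slc25a10. With the adipocyte mean as an added term the diet difference of Slc25a1 was -0.041 ± 0.055 (adjusted p = 0.613) and that of Slc25a10 was -0.021 ± 0.033 (adjusted p = 0.663).

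Slc25a24 followed the macrophage markers, with r = 0.675 (rho = 0.650) in CD and r = 0.742 (rho = 0.624) in HFD (adjusted p = 0.00086 for each r), and within batches r lay between 0.550 and 0.769. Without the 2 farthest arrays r was 0.606 and 0.691. In HFD it followed the adipocyte markers too (r = 0.616, rho = 0.528, adjusted p = 0.0015). With the macrophage mean as an added term its diet difference was 0.009 ± 0.036 (adjusted p = 0.889), and with the adipocyte mean it was 0.045 ± 0.047 (0.498). The macrophage term likewise ended the calls of Slc25a1, at 0.087 ± 0.077 (adjusted p = 0.416), and Slc25a10, at 0.057 ± 0.043 (0.329). Slc25a24 also followed the fibroblast markers in CD (r = 0.625, rho = 0.627, adjusted p = 0.00134 and 0.0012), and in HFD by r alone (r = 0.468, rho = 0.313, adjusted p = 0.0472 and 0.282). Slc25a5 kept its call with either term, at 0.124 ± 0.035 and 0.122 ± 0.033 units, beside 0.185 ± 0.034 without. With the adipocyte and macrophage markers Slc25a5 had r of 0.512 and 0.562 in HFD, and of 0.333 and 0.443 in CD. Calls were also kept with either term by Slc25a11, Slc25a15, Slc25a16, Slc25a33, Slc25a42, Slc25a2, Slc25a48, Slc25a14 and Slc25a26. These covariates were added after the data were seen, and 5 and 8 of the 18 calls were lost with the adipocyte and the macrophage term. The share called over all probesets was 31.9% and 30.4% with these terms. Slc25a17, at 0.076 (adjusted p = 0.234) and 0.025 (0.694), and Slc25a41, at -0.086 (0.0822) and -0.066 (0.179), lost their calls with both. Slc25a18 (-0.084, adjusted p = 0.0741), Slc25a37 (0.073, 0.116) and Slc25a28 (-0.061, 0.0701) lost theirs with the macrophage term, Slc25a28 at nearly the difference it had without. Slc25a12 gained a call with either, at 0.053 (adjusted p = 0.0385) and 0.052 units (0.0358). Whether the cells that express these markers carry the changes was not tested.

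**Figure D3:**
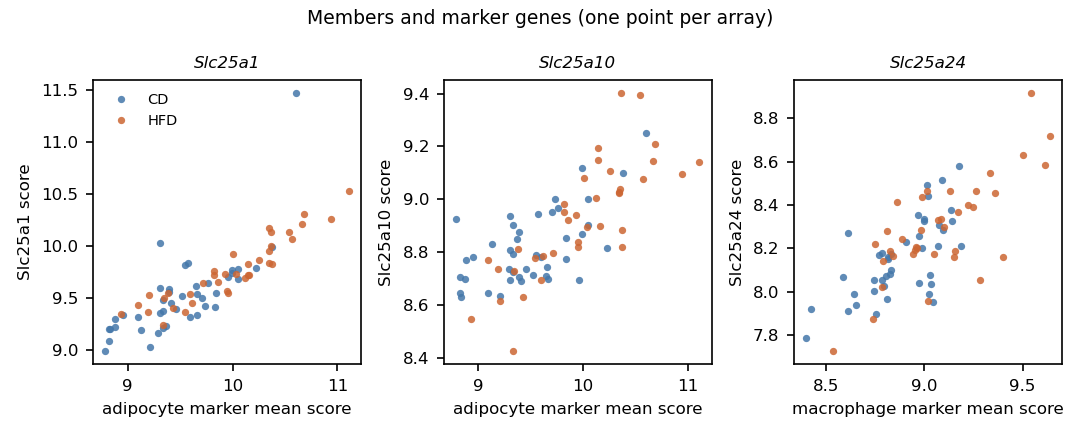
Carrier scores (vertical axes) against the mean score of adipocyte or macrophage markers (horizontal axes), one point per array, for 42 CD and 37 HFD arrays. Slc25a1 and Slc25a10 rise with the adipocyte mean and Slc25a24 with the macrophage mean on either diet (r of 0.619 to 0.923), and the CD point at 11.48 is BXD56.

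The genes that act beside the carriers were tested in the same fit, which called 38.1% of all probesets. Of 12 genes of carrier import, 2 were higher, Tomm70a (the receptor that binds carrier precursors) by 0.158 ± 0.035 units and Tomm22 (a TOM receptor) by 0.092 ± 0.029 units. The small TIM genes Timm8a1 and Fxc1 (the older name of Timm10b) were lower, at -0.139 and -0.089 units. Of 13 other mitochondrial transporters and channels, Sfxn2, a sideroflexin of the inner membrane, rose by 0.227 ± 0.041 units (adjusted p = 4.92e-06) and Brp44l, a subunit of the pyruvate carrier, was at -0.066 units (adjusted p = 0.0409). Sfxn4, another sideroflexin, passed without BXD63 (0.12 units, adjusted p = 0.0479, beside 0.0608 with that strain). The voltage-dependent channels Vdac1, Vdac2 and Vdac3 were not called. Of the 6 shuttle enzymes, mitochondrial malate dehydrogenase (Mdh2) was higher by 0.087 ± 0.026 units, and both glycerol phosphate dehydrogenases, Gpd1 and Gpd2, were lower, at -0.109 and -0.093 units.

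The order of the strains was compared between diets. Cross-diet r over the 37 paired strains, with batch means removed, was above 0 for 38 of 43 carriers and had a median of 0.297, against 0.140 over all probesets. The share of all probesets above 0 and the median over the brighter probesets alone were not computed. The permutation test called 8 carriers, where it called 10.5% of all probesets, Slc25a42, Slc25a11, Slc25a30, Slc25a12, Slc25a23, Slc25a13 and Slc25a35 among them. Slc25a42 is in these counts by its pooled test, which is set aside further on because its strains formed clusters, and the share over all probesets was not screened for clusters. The count was 2 and 1 among the 12 and 17 strains whose arrays shared batch 1 or batch 2 (2.03% and 3.26% of probesets called). It was 0 among the 8 strains with arrays in different batches, where no probeset was called, and 5 without the 2 farthest strains of each gene (7.37% of probesets). Without BXD63 it was 9 (9.99% of probesets), since Slc25a24 joined at r = 0.468 (adjusted p = 0.0404, beside 0.450 and 0.0506 with that strain). Slc25a4 had r = 0.016 and Slc25a14 the lowest value, r = -0.312 (rho = -0.331, adjusted p = 0.248 for r).

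For Slc25a11 r was 0.640 (rho = 0.544, adjusted p = 0.00195 and 0.0107). It was 0.908 in batch 1, 0.435 in batch 2 and 0.086 among the 8 strains with arrays in different batches. The call rests on the 2 farthest strains, since r fell to 0.461 once they were dropped (adjusted p = 0.0659). For Slc25a30, a carrier close to the uncoupling proteins that did not differ detectably between diets, r was 0.601 (rho = 0.621, adjusted p = 0.00207 and 0.00219), with 0.655 and 0.495 within batches and 0.570 without the 2 farthest strains. Slc25a12 had r = 0.581 (rho = 0.602, adjusted p = 0.00562 and 0.00312), 0.545 and 0.381 within batches, and 0.553 without the 2 farthest strains. Slc25a12 thus kept a strain order over a narrow span of scores (13.67 to 13.97 in CD).

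For Slc25a23 r was 0.514 (adjusted p = 0.0162), but rho was 0.416 (adjusted p = 0.0898), batch 2 alone gave 0.148 and r without the 2 farthest strains was 0.414 (adjusted p = 0.121). Slc25a13 had r = 0.477 (rho = 0.575, adjusted p = 0.0314 and 0.0066), with 0.642 and 0.524 within batches and 0.613 without the 2 farthest strains. Its call was lost after quantile normalization (r = 0.423, adjusted p = 0.0703) and with median centring (0.436, 0.0697). The call of Slc25a35 (r = 0.464, rho = 0.294, adjusted p = 0.0429 and 0.301) was lost without the 2 farthest strains, at r = 0.214.

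Slc25a42 differed in kind, since its strains fell into separate clusters. A mixture of 2 normal components placed 14 strains around 10.22 and 23 around 10.64 (mean over both diets), so no pooled r is given. A relation inside the clusters could not be tested, because they were cut on the mean of the 2 values that would be correlated. The parents were compared next. C57BL/6J scored 9.88 in CD and 10.24 in HFD, and DBA/2J 10.33 and 10.68. C57BL/6J minus DBA/2J was -0.452 ± 0.118 units (adjusted p = 0.0411), in a fit that takes its spread from all paired strains, since each parent had 1 array per diet. It was the only carrier called between the parents, where 1.26% of probesets were called. The call was lost without the batch term (adjusted p = 0.0676), with median centring (0.102) and in the 4 parental arrays alone (0.444), with the same difference or one of -0.439. In these settings 1.21%, 1.05% and 0.0112% of probesets were called, so the parental arrays alone could call hardly any gene. C57BL/6J was below all 40 BXD strains in CD, but in HFD some BXD strains lay below it, down to 10.11 (BXD63). Of the 35 paired BXD strains, 24 lay nearer DBA/2J on both diets, 3 lay nearer C57BL/6J on both, and 8 differed in side. Slc25a1 too had a strain apart (BXD56), and no r is given for it.

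**Figure D4:**
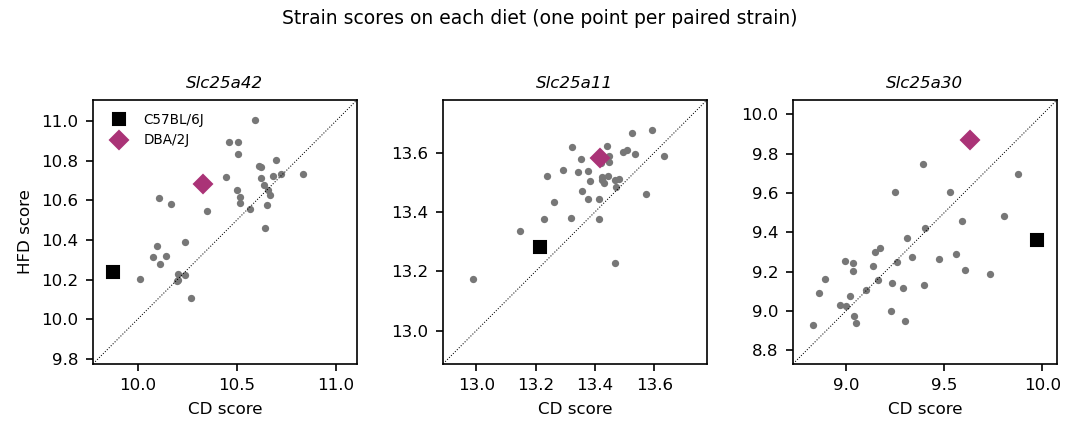
HFD score (vertical) against CD score (horizontal) for Slc25a42, Slc25a11 and Slc25a30, one point per paired strain (n = 37), with both parents marked and the dotted line at equal scores. For Slc25a42 the points form a lower and an upper group, with C57BL/6J (9.88 and 10.24) at the low end and DBA/2J (10.33 and 10.68) higher.

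Across strains of one diet, the carriers spanned a median of 0.658 units from the lowest to the highest array in CD (nominal 1.578-fold) and of 0.755 units in HFD (1.688-fold), beside 0.650 and 0.694 over all genes. In each diet 7 carriers spanned at least 1 unit, as did 10.3% of all genes in CD and 12.1% in HFD. Without the most distant array of each carrier there were 5 in CD and 4 in HFD. Slc25a25, a calcium-regulated ATP-Mg/phosphate carrier, ran from 7.82 to 10.12 in CD and from 7.89 to 9.82 in HFD, and it is wide by its 10th to 90th percentile too (1.322 and 1.194 units). Slc25a1 spanned 2.486 units in CD, but 1.043 without the BXD56 array. Slc25a34 spanned 1.629 units in CD and 1.446 in HFD, and Slc25a22 1.376 and 1.156. At the other end Slc25a4 spanned 0.266 and 0.334 units and Slc25a12 0.293 and 0.394. Leaving out the most distant array also cut the range by over 1.5 times for Slc25a35 in CD (BXD43, 1.372 to 0.847) and, in HFD, for Slc25a13 (BXD98, 0.863 to 0.559) and Slc25a43 (BXD62, 0.843 to 0.424).

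The carriers did not vary as one block. Over the 903 pairs the median r was 0.005 in CD and -0.001 in HFD, beside 0.008 and 0.006 over all gene pairs. Pairs with r of at least 0.5 numbered 16 in CD (1.77%, where 1.21% of all gene pairs reached it) and 22 in HFD (2.44%, where 3.15% did). Among pairs of genes at or above the median probeset mean the shares were 1.66% and 3.68%. With median centring the CD count was 32, with no share over all gene pairs at hand for that centring. There were 4 pairs that did so on both diets, 25% of the CD pairs and 18.2% of the HFD pairs. There were 5 pairs at or under -0.5 in CD (0.554%, where 0.528% of all gene pairs were) and 12 in HFD (1.33%, where 1.73% were), with none in common. Among pairs of the brighter genes these shares were 0.902% and 2.7%. The overlap between diets was not computed over all gene pairs.

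The 5 pairs with the highest and the 3 with the lowest r were picked on the CD arrays and tested on the HFD arrays of the same strains, with p-values adjusted over the 8. Slc25a34 and Slc25a22 had r = 0.820 in CD and 0.825 in HFD (rho = 0.772, adjusted p = 4e-05 for each). In HFD r was 0.658 and 0.912 within the batches, and 0.770 without the 2 farthest arrays. Slc25a10 and Slc25a1 had r = 0.650 in CD and 0.818 in HFD (rho = 0.871, adjusted p = 4e-05 for each), with 0.831 and 0.809 within batches and 0.798 without the 2 farthest. In CD the BXD56 array held the highest score of both genes (9.25 and 11.48), and their CD r without it was not computed. Slc25a32, the folate carrier, and Slc25a17 had 0.619 and 0.556 (rho = 0.607, adjusted p = 0.00115 and 0.00032), with 0.437 and 0.767 within batches and 0.553 without the 2 farthest. The second probeset of Slc25a17 followed the first weakly (r of 0.070 in CD and 0.386 in HFD), so all relations of this gene hold for the probeset used.

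Of the other 5 pairs, 2 passed for r on HFD. Slc25a39 and Slc25a23 had r = 0.628 in CD and 0.366 in HFD (adjusted p = 0.0404), with rho at 0.299 (0.0944), 0.526 in batch 1 and -0.091 in batch 2. Slc25a37 and Slc25a17 went from 0.613 to 0.326 (adjusted p = 0.0637, and 0.0309 for rho of 0.383). Slc25a47 and Slc25a27 stayed negative, at -0.508 and -0.436 (rho = -0.401, adjusted p = 0.0145 and 0.0294), with -0.243 and -0.598 within batches and -0.278 without the 2 farthest arrays. Slc25a28 with Slc25a24 was at -0.510 in CD and 0.272 in HFD, and Slc25a37 with Slc25a34 at -0.558 and -0.301, neither passing on HFD (adjusted p = 0.104 and 0.0802).

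Marker lists moved with the 3 of these 8 pairs that had the highest r in HFD, and with Slc25a39 and Slc25a23 in CD. These last had r of 0.506 and 0.453 with the endothelial markers in CD. In HFD their values were -0.159 and 0.097, and no carrier passed with that list. Slc25a34 and Slc25a22 followed the slow fibre markers in CD (r = 0.648 and 0.584, rho = 0.660 and 0.625, adjusted p = 0.00134 and 0.00215 for r), with r of 0.584 to 0.708 within batches, and r of 0.584 and 0.527 without the 2 farthest arrays. In HFD the same values were 0.315 and 0.358 and did not pass (adjusted p = 0.262 and 0.186). Slc25a3 too followed the slow fibre markers in CD (r = 0.615, rho = 0.641, adjusted p = 0.00086), while r was 0.195 in HFD and did not pass (adjusted p = 0.574). Slc25a10 and Slc25a1 both followed the adipocyte markers, as given above. Slc25a32 and Slc25a17 ran against the red blood cell markers in CD (r = -0.544 and -0.532, rho = -0.564 and -0.451, adjusted p = 0.00642 and 0.0085 for r), with -0.591 to -0.454 within batches and -0.585 and -0.447 without the 2 farthest arrays, but not past the test in HFD (r = -0.060 and -0.367). In HFD both ran against the muscle fibre markers (r = -0.569 and -0.505, rho = -0.567 and -0.534, adjusted p = 0.0085 and 0.0267 for r), with -0.648 to -0.437 within batches, as did Slc25a32 in CD (r = -0.472, rho = -0.456, adjusted p = 0.0289). Slc25a17 followed the macrophage markers by r on either diet (0.442 and 0.543, rho = 0.548 and 0.404, adjusted p = 0.0472 and 0.0161 for r, and 0.0107 and 0.126 for rho). The part of these cell types in the pairs was not tested.

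**Figure D5:**
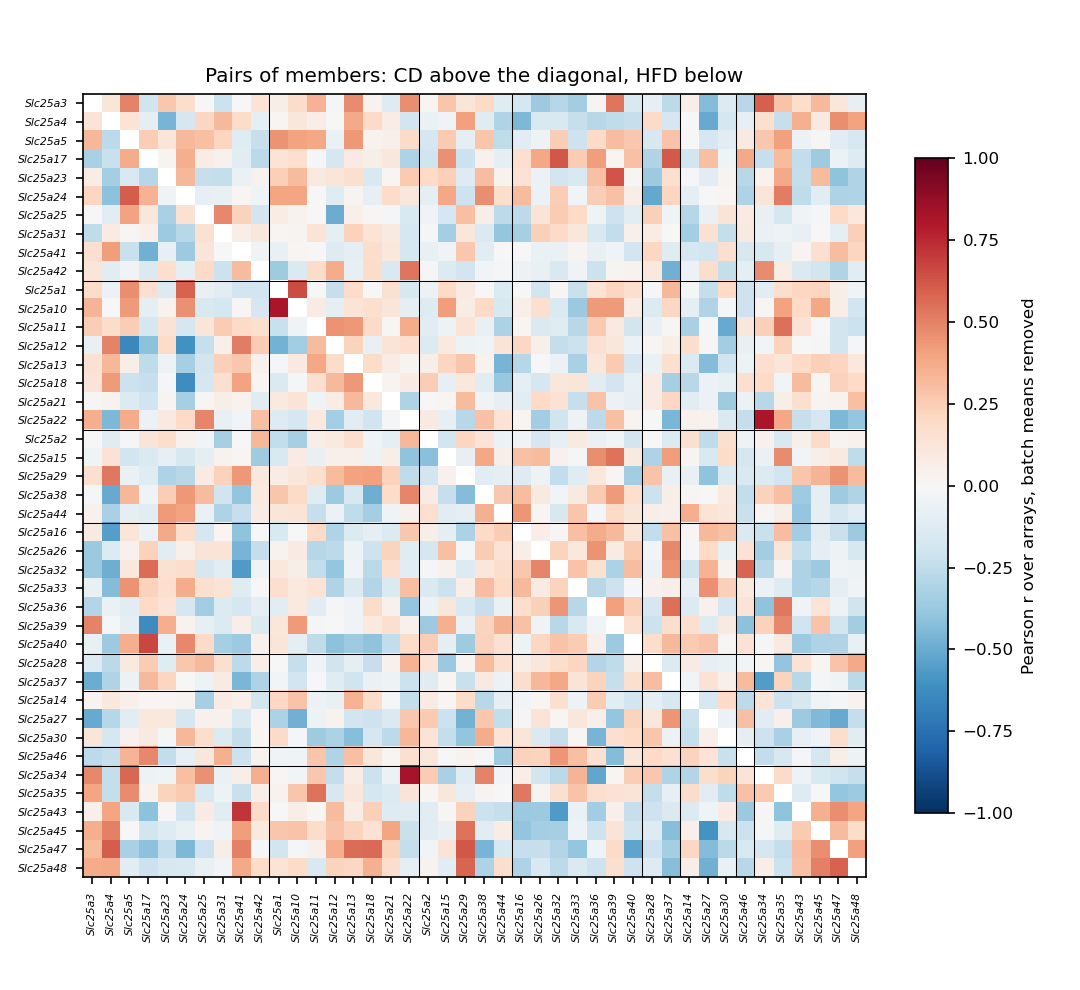
Pearson r between 42 of the carriers over arrays with batch means removed, 42 CD arrays above the diagonal and 37 HFD arrays below, with lines between role groups. Most cells are pale (median r over the 903 pairs of 0.005 and -0.001), and the dark ones include Slc25a34 with Slc25a22 (0.820 and 0.825) and Slc25a1 with Slc25a10 (0.650 and 0.818).

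Promoters of the 2 pairs with the highest r on both diets are shown so that the sequence at their starts can be read beside their values. They are RefSeq windows of 300 bases around the start of the gene (GRCm38.p6, minus strand except for Slc25a10), 5′ to 3′ in the direction of transcription, with capitals at matches on either strand to AAGGTCA (a nuclear receptor half-site), TCACCCCAC (a sterol regulatory element), CACGTG and CAGCTG (E-boxes), CCAAT and GGGCGG (a GC box), none of which contains another.
Slc25a34, chr4:141623785-141624084: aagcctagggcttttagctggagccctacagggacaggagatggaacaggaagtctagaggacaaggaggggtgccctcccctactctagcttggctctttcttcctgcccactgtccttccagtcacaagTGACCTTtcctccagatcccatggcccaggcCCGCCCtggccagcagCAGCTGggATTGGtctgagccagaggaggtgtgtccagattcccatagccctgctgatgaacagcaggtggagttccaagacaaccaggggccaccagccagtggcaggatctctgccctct
Slc25a22, chr7:141435326-141435625: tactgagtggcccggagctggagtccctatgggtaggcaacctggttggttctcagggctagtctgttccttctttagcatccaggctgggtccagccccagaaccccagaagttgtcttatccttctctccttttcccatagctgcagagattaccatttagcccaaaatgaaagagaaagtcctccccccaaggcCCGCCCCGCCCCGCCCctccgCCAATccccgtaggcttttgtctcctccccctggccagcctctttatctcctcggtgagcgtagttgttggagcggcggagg
Slc25a1, chr16:17928170-17928469: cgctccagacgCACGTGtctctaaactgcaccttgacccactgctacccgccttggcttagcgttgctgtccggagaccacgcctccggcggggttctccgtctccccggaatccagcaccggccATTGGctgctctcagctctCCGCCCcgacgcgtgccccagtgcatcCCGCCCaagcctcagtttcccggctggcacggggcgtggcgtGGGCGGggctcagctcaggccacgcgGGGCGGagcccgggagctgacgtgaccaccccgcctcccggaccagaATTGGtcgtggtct
Slc25a10, chr11:120491587-120491886: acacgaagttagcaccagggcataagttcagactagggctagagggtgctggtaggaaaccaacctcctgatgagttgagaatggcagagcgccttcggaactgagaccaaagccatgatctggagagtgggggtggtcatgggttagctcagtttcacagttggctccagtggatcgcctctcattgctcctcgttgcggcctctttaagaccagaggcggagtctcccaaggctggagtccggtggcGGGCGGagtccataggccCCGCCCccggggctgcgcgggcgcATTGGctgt
Slc25a22 has 3 start sites in the table, of which the one with most matches is shown. The Slc25a34 window holds 1 AAGGTCA, 1 CAGCTG, 1 CCAAT and 1 GGGCGG, and that of Slc25a22 holds 1 CCAAT and 3 GGGCGG. The Slc25a1 window holds 1 CACGTG, 2 CCAAT and 4 GGGCGG, and that of Slc25a10 holds 1 CCAAT and 2 GGGCGG. The other 2 windows of Slc25a22 hold 1 GGGCGG each and no CCAAT. Of the 32851 promoters in the table, 37.4% hold CCAAT and 35.7% GGGCGG.

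Over the whole family, 33 of 43 members matched the promoter table, with 42 windows. GGGCGG was in 35 of them (83.3%), CCAAT in 21 (50%), CACGTG in 8 (19%, beside 7.15% of all promoters) and CAGCTG in 3 (7.14%, beside 16.3%). AAGGTCA was in 1 (2.38%, beside 4.72%) and TCACCCCAC in none (beside 0.551%). These are matches of letters in a window and not sites shown to be bound.

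Some carriers rest on uncertain probesets. The Slc25a36 probeset used lies by its number among probesets of chromosome 2 (9 of the 10 nearest), while the gene is on chromosome 9. Its other probeset, which lies among those of chromosome 9, followed it with r = 0.843 in CD and 0.790 in HFD and differed by 0.007 units between diets. For Slc25a40, a paralog of the glutathione carrier Slc25a39, the probeset used was at 0.081 ± 0.049 units and the other at -0.418 ± 0.050 (adjusted p = 7.88e-11), with r of 0.573 and 0.481 between them. The other one lies among probesets of chromosome 9 and the gene is on chromosome 5. With the mean of all probesets of a symbol, Slc25a40 was called lower (-0.169 units) and Slc25a17 was no longer called. The 2 probesets of Slc25a46 hardly varied together (r = 0.022 in CD and 0.188 in HFD), and neither was called between diets.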

How the data were processed

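RNA from quadriceps of 79 strain and diet groups was hybridised to one array each. The deposited values, made by the authors with Affymetrix Expression Console per the submitters' processing notes (version not given in the sources used here), are a score with a mean of 8 and an SD of 2 on every array. The log base, the summarisation and any batch correction before deposit are not given in the sources used here, so differences are in score units, and a batch effect removed upstream could not be seen. A log2 unit had been assumed in the planned design, and the tests suit either scale. Arrays carry no depth, and their number limits the precision. Each carrier was represented by its probeset with the highest mean.

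Diet was tested with limma 3.58.1 (R 4.3.3), fitting diet and batch to the 79 arrays, with Benjamini-Hochberg adjustment over 35556 probesets at 0.05. The parents were compared in a paired fit over strains. Correlations used batch means removed within diet, and 2-sided permutation tests with 100000 draws (the smallest p they can give is 1e-05) in Python 3.11.15, numpy 2.4.6, pandas 2.3.3 and scipy 1.17.1. Cross-diet p-values were adjusted over all probesets, those of marker relations over 602 and those of pairs over 8. A gene was said to fall into clusters where a mixture of 2 normal components (sklearn 1.9.0) lowered the BIC by at least 10 with an Ashman D above 2. Figures used matplotlib 3.10.9. The code was tested on simulated data.

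The batch term called 0 probesets by limma (0 at an unadjusted p under 0.05, smallest p of 0.266). The batch means of the deposited values were thus more even than sampling alone would leave them over 35556 probesets. How this came about is not given in the sources used here. Fits with or without the batch term are therefore no check for a batch effect. Strain names in the labels pair CD with HFD arrays. Deviations of the 2 arrays of a strain correlated at -0.147 to 0.390 (median 0.200, over 0.1 in 33 of 37 strains, beside -0.007 between different strains). The pairing comes from the labels, as a shared genotype and not as shared animals, and these correlations do not test it.

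The carriers described in most detail were those of ATP production, the largest rises and falls among the calls, the highest cross-diet r and the 8 pairs picked on CD. Members and gene lists were chosen with earlier results of these data known. Other settings concerned the batch (no term, or 1 batch at a time), the strain block, the test, dim probesets, probesets per symbol, scaling, centring and BXD63. The adipocyte and macrophage covariates, the fits leaving out each strain and the ranges without the most distant array were chosen after seeing the data. Items withheld from this text are counted in the totals but are not reported here.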

Additional observations from a re-analysis of the deposited data

How the results depend on the processing

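Among values of a single carrier or pair recomputed under an alternative, 612 kept their direction and side of the threshold, 18 gained and 80 lost a call, and 22 changed sign. With the adipocyte covariate Slc25a1 went to -0.041, Slc25a10 to -0.021, Slc25a25 to -0.029, Slc25a22 to 0.034, Slc25a32 to -0.001, Slc25a27 to 0.011, Slc25a21 to -0.019 and Slc25a45 to -0.017 units. With the macrophage covariate Slc25a25 went to -0.037, Slc25a22 to 0.003, Slc25a32 to -0.042 and Slc25a21 to -0.004. Slc25a30 was at 0.016 in batch 2 and 0.003 with median centring, Slc25a22 at 0.042 in batch 1 and 0.013 with median centring, Slc25a32 at -0.001 in batch 2 and -0.016 after quantile normalization, Slc25a21 at -0.001 in batch 2, Slc25a45 at -0.003 in batch 1, Slc25a40 at -0.169 with the mean of its probesets, and Slc25a39 with Slc25a23 on HFD at -0.091 in batch 2. Of 10 carriers higher in HFD there were 2 in batch 1, 4 in batch 2, 16 with median centring and 6 with the macrophage covariate. Of 8 lower there were 3, 5, 4 without dim probesets (fewer carriers tested) and 5 with the macrophage covariate. With each strain as a block the pairing gave 11 higher and 8 lower with Slc25a34 as the one call that changed. Leaving out each strain in turn gave 8 to 12 higher and 8 lower. Of 8 cross-diet calls there were 2 and 1 within batches, 0 across batches (8 strains, permutation test) and 5 without the 2 farthest strains. Pairs with r of at least 0.5 in CD numbered 47 and 48 within batches (fewer arrays) and 32 with median centring, and in HFD 78 in batch 2. No share over all gene pairs is at hand for these settings. The median 10th to 90th percentile range in HFD was 0.397 units. Between the parents 0 carriers were called without the batch term, in the 4 parental arrays alone and with median centring. The share of probesets called there was 1.21%, 0.0112% and 1.05%. Fewer arrays were tested within batches, and elsewhere the cause was not tested.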
